A study of Homo sapiens with 5 samples.

Results

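Prostate cancer cells of the line C4-2B, which was derived from LNCaP cells and grows in bone, were treated with 25 µM BR-DIM for 6 h or with 25 µM isoflavone for 6 h, and the comparison of these cultures is described here gene by gene. BR-DIM (B-DIM in the labels) is a formulated 3,3′-diindolylmethane, a condensation product of an indole found in cabbage and its relatives. The isoflavone is G2535, a soy mixture that is mostly genistein with daidzein, and its dose counts the genistein alone. The 2 arrays were chosen by their labels, from 5 arrays in all, which also hold BR-DIM for 48 h, isoflavone for 72 h and a control with 0.1% DMSO for which the sources used here give no time in culture. All cells were grown in RPMI medium with fetal bovine serum. Each condition is 1 array. No difference could therefore be checked against replicates, no p-value is given, and whether a value is that of the treatment or of the culture, the RNA or the array cannot be told apart.

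Signals are linear intensities of Affymetrix probe sets, which the authors had scaled to a common level. Signals under 97.1, the median of all signals, were raised to that floor, and each gene was read from its brightest probe set. Of 19775 genes with a probe set, 13075 were measured, meaning that BR-DIM 6 h, isoflavone 6 h or both gave more than the floor. A gene was called higher or lower at 2-fold, a log2 ratio of 1, and where a signal was raised to the floor the ratio is only a lower bound on the difference.

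The isoflavone 6 h array stood apart in the genes that mark the cell line. Of 10 LNCaP lineage markers with a probe set, 10 were above the floor with BR-DIM 6 h, 4 with isoflavone 6 h, 5 with BR-DIM 48 h, 10 with isoflavone 72 h and 9 in the control, with summed signals of 9774, 1722, 1855, 9068 and 10715 in that order. KLK2, FOLH1, TMPRSS2 and TRPM8 lay under the floor both with isoflavone 6 h and with BR-DIM 48 h. The low level was therefore seen at a short time of one compound and at the long time of the other, and its part in the differences below was not tested. An effect of the treatments, a different culture and exchanged labels cannot be told apart for this pair of arrays. Of 11 fibroblast and osteoblast markers, 7 were above the floor with BR-DIM 6 h (sum 2499) and 3 with isoflavone 6 h (sum 1198). Of 9 macrophage and osteoclast markers, 1 was above the floor with BR-DIM 6 h (sum 426) and 4 with isoflavone 6 h (sum 657). ITGAM, MMP9 and OSCAR were above it with isoflavone 6 h and not with BR-DIM 6 h. PTPRC, CD14, AIF1, CSF1R and DCSTAMP were not above it on either array. Of 7 endothelial markers, 1 was above the floor with BR-DIM 6 h, PECAM1, and 0 with isoflavone 6 h. VWF, CDH5, KDR, CLDN5, ESAM and TEK were not above it on either. Over genes above the floor on both arrays, the median log2 ratio of each of 22 autosomes lay between -0.11 and 0.12.

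As background, cells answer small molecules of this kind through sensors with known target genes. The aryl hydrocarbon receptor (AhR) is held in the cytosol by HSP90 chaperones until it binds a planar aromatic or indole ligand, and with its partner ARNT it then switches on the cytochromes of the CYP1 family and its own repressors. The integrated stress response starts when one of a set of kinases phosphorylates the initiation factor eIF2α, which slows translation but favours that of ATF4. ATF4, with partners of the C/EBP family, then drives genes of amino acid uptake, amino acid synthesis, tRNA charging and cell death. E-cadherin and the tight junction proteins hold prostate epithelial cells together, and the kallikreins, among them the prostate-specific antigen KLK3, are produced in luminal cells in response to androgens.

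Stretches upstream of the start of some of the genes described below are shown, because the letters that these regulators are known to bind can be read in them. They are from RefSeq (GRCh38.p14), in the direction of the gene, 5′ to 3′, and capitals mark the match. Windows of 250 bases before the annotated start were searched on both strands. For AhR the core GCGTG was searched, which 31.9% of 27305 promoters hold. Of the genes with a window, it was found in CYP1A1 (chr15:74725561-74725605, minus strand, 57 bases before the start), in TIPARP (2 matches, with that 142 bases before the start shown, chr3:156674428-156674472, plus strand) and in AHRR (chr5:321664-321708, plus strand, 30 bases before the start), with 0 matches in CYP1A2. Of the measured targets with a window, it was in 1 of the 3 called higher with BR-DIM and in 2 of the 2 others.
CYP1A1: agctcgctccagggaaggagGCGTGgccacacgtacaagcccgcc
TIPARP: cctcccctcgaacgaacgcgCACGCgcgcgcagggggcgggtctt
AHRR: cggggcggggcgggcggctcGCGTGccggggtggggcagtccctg

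For ATF4 with C/EBP partners the letters TGATGNAA were searched, which 3.19% of the promoters hold. They were found in CHAC1 (chr15:40953242-40953289, plus strand, 209 bases before the start), ATF3 (chr1:212565196-212565243, plus strand, 191 bases), HERPUD1 (chr16:56931946-56931993, plus strand, 176 bases) and ASNS (chr7:97872449-97872496, minus strand, 68 bases). DDIT3 and TRIB3 held 0 matches in the window. Of the stress factor, amino acid enzyme and carrier genes with a window, 2 of the 14 called higher with BR-DIM and 4 of the 29 others held the letters.
CHAC1: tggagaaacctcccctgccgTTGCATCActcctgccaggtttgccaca
ATF3: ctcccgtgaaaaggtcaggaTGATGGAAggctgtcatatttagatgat
HERPUD1: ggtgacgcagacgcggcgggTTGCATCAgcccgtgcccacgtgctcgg
ASNS: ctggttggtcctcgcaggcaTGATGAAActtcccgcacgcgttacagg

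For CCN2, the gene that stood furthest to the isoflavone side, the letters CATTCC, which TEAD factors bind, were searched. They were found 3 times in its window and in 11.9% of all promoters, and the match 104 bases before the start is shown (chr6:131951451-131951496, minus strand). The match 95 bases before the start lies in the same stretch and is left in lower case.
CCN2: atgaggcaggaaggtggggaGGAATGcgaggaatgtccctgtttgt

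Of the 13075 measured genes, BR-DIM 6 h exceeded isoflavone 6 h by 2-fold or more in 916 (7.01%) and fell short of it by 2-fold or more in 146 (1.12%). Of all called genes 86.3% were thus on the higher side, and 73.4% (688 higher, 249 lower) once the signal distributions of the 5 arrays had been made equal by quantile normalization. The middle of the distribution lay near 0, with a median log2 ratio of 0.06 and 75.9% of the genes within 1.5-fold. A 4-fold difference was reached by 102 genes on the higher side and by 2 on the lower side. Of the 916 higher genes, 274 lay at or under the floor with isoflavone 6 h, so that their ratios are bounds, and 642 were above it on both arrays. The share called higher fell with brightness. It was 10.1% among 4269 genes whose brighter signal was at most 388, 8.60% among 4581 between 388 and 1554, 2.61% among 3252 between 1554 and 6214, and 0.617% among 973 above. The share called lower was 1.36%, 1.38%, 0.615% and 0.514% in the same order. The median log2 ratio fell likewise, at 0.24, 0.09, -0.07 and -0.11, so the overall median near 0 hides a tilt with brightness. The median signal was 109 on the BR-DIM 6 h array and 89.3 on the isoflavone 6 h array, with 52.6% and 48.4% of probe sets above the floor. Apart from the quantile normalization above, the part of this tilt in the counts was not tested. Without 529 genes that were at least 2-fold lower on the BR-DIM 48 h than on the isoflavone 72 h array, a rule that uses neither 6 h array and was chosen after seeing the data, 758 of 12546 genes were higher (6.04%).

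**Figure D1:**
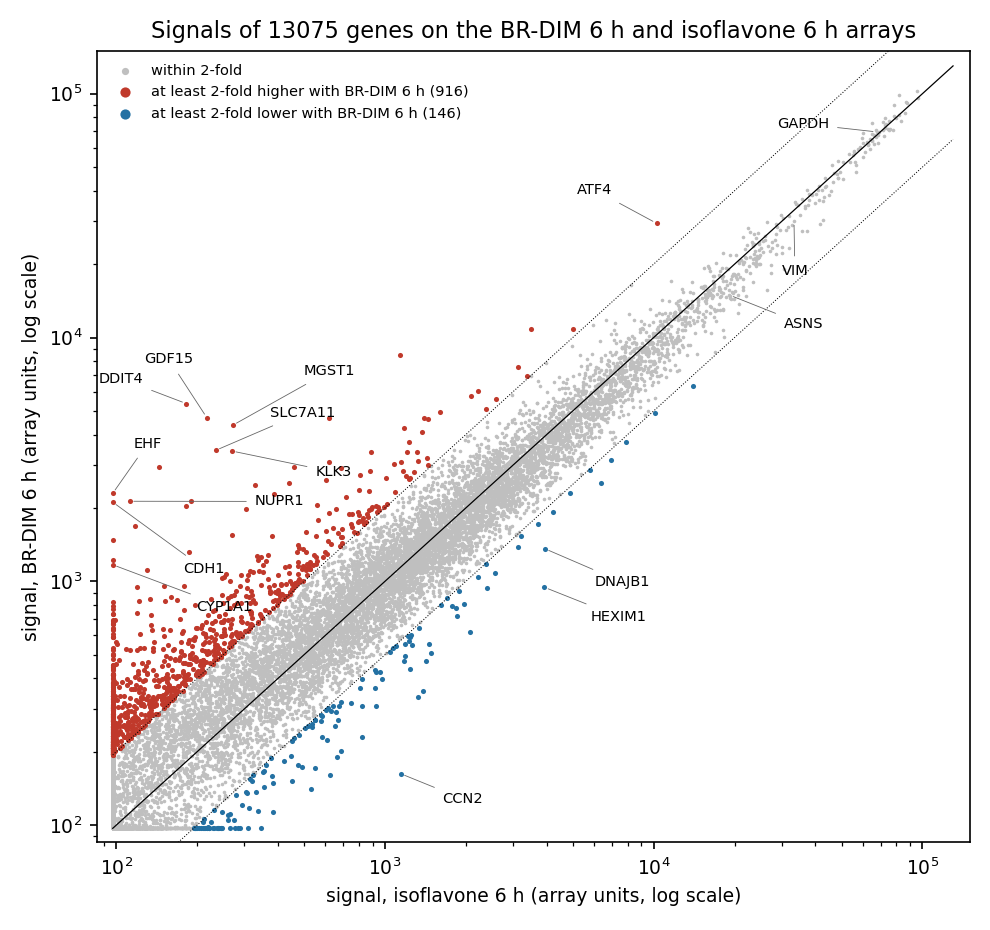
Signal of each measured gene with BR-DIM 6 h (vertical axis) and isoflavone 6 h (horizontal axis), both in array units on log scales, with signals under 97.1 drawn at that floor. The solid line marks equal signals and the dotted lines 2-fold; the 916 red genes were higher and the 146 blue genes lower with BR-DIM.

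The DMSO control was then set beside both arrays. Both were divided by the same control array, so an error of that array enters both ratios. Among the 916 higher genes the control lay nearer to BR-DIM 6 h for 553 and nearer to isoflavone 6 h for 363 on the log2 scale, and their median log2 ratio over the control was 0.54 for BR-DIM 6 h and -0.83 for isoflavone 6 h. Among the 146 lower genes the control lay nearer to BR-DIM 6 h for 66 and nearer to isoflavone 6 h for 80, with medians of -0.65 for BR-DIM 6 h and 0.52 for isoflavone 6 h. The gene groups below fell on different sides of this split.

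The CYP1 targets of AhR were higher with BR-DIM. Of 8 listed AhR targets 6 were measured, and 4 of the 6 (66.7%) were called higher and 0 lower, beside 7.01% higher over all genes, with a median log2 ratio of 2.01 beside 0.06. CYP1A1, the cytochrome that oxidises polycyclic hydrocarbons, had a signal of 1170.0 with BR-DIM 6 h, against 83.7 with isoflavone 6 h, and 166 with BR-DIM at 48 h, 134 with isoflavone at 72 h and 88.9 in the control. It was high on 1 array alone, at least 12-fold above isoflavone 6 h. CYP1B1, a related cytochrome that also hydroxylates estradiol, had 960.5 on the BR-DIM 6 h array, against 150.1 on the isoflavone 6 h array, and 1048 (BR-DIM 48 h), 118 (isoflavone 72 h) and 172 (control) on the other arrays. It was high on both BR-DIM arrays and low on the others, 6.40-fold apart at 6 h. Another 2 of its probe sets had 386 and 346 with BR-DIM 6 h, against 87.9 and 141 with isoflavone 6 h. CYP1A2, the liver enzyme of the family, had 363 on the BR-DIM 6 h array, against 121 on the isoflavone 6 h array, and 139 (BR-DIM 48 h), 109 (isoflavone 72 h) and 117 (control) on the other arrays. That was again high on the BR-DIM 6 h array alone, 2.99-fold above isoflavone 6 h.

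The remaining targets differed from this pattern. TIPARP, an ADP-ribosylase that turns AhR off, had 3267 on the BR-DIM 6 h array, against 1779 on the isoflavone 6 h array, and on the remaining arrays 4138 (BR-DIM 48 h), 1192 (isoflavone 72 h) and 1188 (control). It was highest on the BR-DIM arrays, but its ratio of 1.84 at 6 h stayed under 2-fold. NQO1, a quinone reductase driven by NRF2 as well as AhR, had 865.5 with BR-DIM 6 h, against 160.5 with isoflavone 6 h, and on the remaining arrays 48.3 (BR-DIM 48 h), 3999.8 (isoflavone 72 h) and 919.6 (control). Here BR-DIM 6 h was at the level of the control and isoflavone 6 h was below it, together with BR-DIM 48 h. AHRR, the AhR repressor, had 888 with BR-DIM and 849 with isoflavone at 6 h (log2 ratio 0.07), and ALDH3A1 and UGT1A6 were under the floor on both. The receptor and its partners were not called in either direction. Of 6 measured members 0 were past 2-fold, with AHR at 223 with BR-DIM 6 h, against 289 with isoflavone 6 h (-0.37), ARNT at 516 with BR-DIM and 419.9 with isoflavone at 6 h (0.30) and ARNT2 at 471 with BR-DIM 6 h, against 315 with isoflavone 6 h (0.58). The list median moved with the processing, to 0.88 once the floor was set at the 75th percentile and to 0.88 without the probe sets that may match several transcripts.

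Among transcription factors and effectors of the integrated stress response, 8 were higher with BR-DIM. Of 18 listed genes 16 were measured, and 8 of the 16 were higher, beside 7.01% higher over all genes. In this list 0 genes were lower and 5 lay below a log2 ratio of 0, with a median of 0.96. DDIT3 (CHOP), the factor that couples prolonged stress to cell death, had 2484.5 on the BR-DIM 6 h array, against 327 on the isoflavone 6 h array, and on the remaining arrays 2068 (BR-DIM 48 h), 2231 (isoflavone 72 h) and 315 (control). The isoflavone 6 h value was close to that of the control and the other treated arrays were several times above it. CHAC1, which degrades glutathione, had 849 on the BR-DIM 6 h array, against 133.4 on the isoflavone 6 h array, and on the remaining arrays 451 (BR-DIM 48 h), 491 (isoflavone 72 h) and 68.5 (control). JDP2, a repressor of the AP-1 family, had 500.1 on the BR-DIM 6 h array, against 75.8 on the isoflavone 6 h array, and on the remaining arrays 509 (BR-DIM 48 h), 497 (isoflavone 72 h) and 107 (control). CEBPB, a partner of ATF4, had 4674.5 on the BR-DIM 6 h array, against 619 on the isoflavone 6 h array, and 4430.4 with BR-DIM at 48 h, 4087 with isoflavone at 72 h and 1083 in the control. For these genes isoflavone 6 h lay nearest to the control, while isoflavone 72 h lay with both BR-DIM arrays.

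ATF4 itself had 29417 with BR-DIM 6 h, against 10250.5 with isoflavone 6 h, and 33336 (BR-DIM 48 h), 31622 (isoflavone 72 h) and 13046 (control) on the other arrays, a 2.87-fold difference at 6 h. TRIB3, a pseudokinase that restrains ATF4 and AKT, had 1985 on the BR-DIM 6 h array, against 305 on the isoflavone 6 h array, and on the remaining arrays 2048 (BR-DIM 48 h), 2167 (isoflavone 72 h) and 793 (control). NUPR1, a small stress-induced chromatin protein, had signals of 2131 (BR-DIM 6 h) and 112 (isoflavone 6 h), and 235 with BR-DIM at 48 h, 1822 with isoflavone at 72 h and 549 in the control. For TRIB3 and NUPR1 the isoflavone 6 h array lay below the control as well as BR-DIM 6 h above it, so that both arrays contributed to ratios of 6.51-fold and 19-fold. ATF3 had signals of 6934 (BR-DIM 6 h) and 3366.5 (isoflavone 6 h), and 10704 (BR-DIM 48 h), 6023 (isoflavone 72 h) and 1134 (control) on the other arrays. It was above the control on every treated array, and its ratio of 2.06 at 6 h was near the 2-fold limit. The eIF2α kinases were not called, with EIF2AK4 (GCN2), which senses uncharged tRNA, at a log2 ratio of 0.57, EIF2AK3 (PERK), the sensor of the endoplasmic reticulum, at 0.48, EIF2AK1 at -0.05 and EIF2AK2 at -0.50. PPP1R15A (GADD34), which reverses the phosphorylation, was at -0.31.

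Carriers of amino acids included several genes called higher, while the share among enzymes of amino acid synthesis lay near that of all genes. Of 20 measured carriers 8 were higher and 1 was lower with BR-DIM, with a median log2 ratio of 0.77, whereas 2 of 16 enzymes of amino acid synthesis (12.5%, beside 7.01% over all genes) were higher and 0 lower, with a median of 0.25. SLC7A11, the cystine carrier that feeds glutathione synthesis, had 3446 on the BR-DIM 6 h array, against 235 on the isoflavone 6 h array, and 2812.5 with BR-DIM at 48 h, 6297 with isoflavone at 72 h and 473 in the control. A second probe set of the gene had 2409.9 with BR-DIM 6 h, against 171 with isoflavone 6 h. SLC3A2, the heavy chain that SLC7A11 pairs with, had 1975 on the BR-DIM 6 h array, against 658 on the isoflavone 6 h array, and on the remaining arrays 2089.6 (BR-DIM 48 h), 1708.5 (isoflavone 72 h) and 729 (control). Isoflavone 6 h was again at or below the control and the other treated arrays above it. Further carriers called higher were SLC7A1, for cationic amino acids (10805 with BR-DIM, 4999.7 with isoflavone, log2 ratio 1.11), SLC38A1, for glutamine (7554 with BR-DIM, 3117 with isoflavone, 1.28), SLC43A1 (1.69), SLC1A1 (1.37), SLC6A6, for taurine (1.31), and SLC43A2 (1.16). The 1 carrier called lower was SLC36A1, a lysosomal proton-coupled carrier, with 256 with BR-DIM and 652 with isoflavone at 6 h.

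Among the enzymes, PSPH, the last step of serine synthesis, had 956 with BR-DIM 6 h, against 179 with isoflavone 6 h, and 992 with BR-DIM at 48 h, 1482 with isoflavone at 72 h and 433 in the control. CTH, which makes cysteine from cystathionine, had 2212 with BR-DIM 6 h, against 719 with isoflavone 6 h, and 1758 (BR-DIM 48 h), 2155 (isoflavone 72 h) and 614.5 (control) on the other arrays. These were the 2 enzymes called higher. ASNS, asparagine synthetase and a classical ATF4 target, had 14932 with BR-DIM and 19146 with isoflavone at 6 h, and on the remaining arrays 28562 (BR-DIM 48 h), 31413 (isoflavone 72 h) and 4353 (control). It was above the control on all 4 treated arrays and its log2 ratio at 6 h was -0.36, slightly to the isoflavone side. PHGDH, the first step of serine synthesis, had 6995 with BR-DIM 6 h, against 10609 with isoflavone 6 h, and 9694 with BR-DIM at 48 h, 7914 with isoflavone at 72 h and 4758 in the control, a log2 ratio of -0.60. PSAT1, the step between, was at 0.61 and MTHFD2, of mitochondrial folate metabolism, at 0.32. Of 17 cytosolic aminoacyl-tRNA synthetases 1 was higher (5.88%, near the 7.01% over all genes) and 1 lower, with a median of 0.24. AARS1 was the higher, with 5740.0 on the BR-DIM 6 h array, against 2094 on the isoflavone 6 h array. RARS1 was the lower, with 2870.5 with BR-DIM and 5819 with isoflavone at 6 h. TARS1 (0.91) and GARS1 (0.83) lay just inside 2-fold. Of 15 mitochondrial synthetases 0 were higher and 1 lower (MARS2, -1.02).

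Some genes that lie downstream of stress were among the furthest apart. DDIT4 (REDD1), a brake on the growth kinase mTORC1, had 5359 with BR-DIM and 182 with isoflavone at 6 h, and on the remaining arrays 2726 (BR-DIM 48 h), 3347 (isoflavone 72 h) and 629.7 (control). Its ratio of 29.4 was the highest among genes above the floor on both arrays and with a signal of at least 388, while ratios against the floor are bounds and may be larger, with BR-DIM 6 h above and isoflavone 6 h below the control. SESN2, a leucine sensor that also restrains mTORC1, had 1904 with BR-DIM 6 h, against 619 with isoflavone 6 h, and DEPTOR, an inhibitor within the kinase complex, had signals of 589 (BR-DIM 6 h) and 216 (isoflavone 6 h). These were the 3 called (25.0%, beside 7.01% over all genes) among 12 brakes on mTORC1, whose median was 0.05. GDF15, a secreted stress hormone that acts on appetite, had 4695 with BR-DIM 6 h, against 217 with isoflavone 6 h, and on the remaining arrays 1031 (BR-DIM 48 h), 4051 (isoflavone 72 h) and 596 (control). STC2, a secreted glycoprotein, had 1227 on the BR-DIM 6 h array, against 91.9 on the isoflavone 6 h array, and on the remaining arrays 2109 (BR-DIM 48 h), 1828 (isoflavone 72 h) and 348 (control). VEGFA, the vascular growth factor, had 2599.7 with BR-DIM and 602 with isoflavone at 6 h, and 2333 with BR-DIM at 48 h, 3905 with isoflavone at 72 h and 874 in the control. Of 8 measured genes of secreted stress outputs 3 (37.5%) were higher and 0 lower, with a median log2 ratio of 0.48 and 2 genes below 0. For GDF15, STC2 and VEGFA the isoflavone 6 h signal was below that of the control and those of the other treated arrays were above it. TSC22D3 (GILZ), which glucocorticoids induce, behaved likewise, with 1528 with BR-DIM and 381.5 with isoflavone at 6 h and 522 in the control. Of 12 measured glucocorticoid-induced genes 2 (16.7%) were higher and 1 lower.

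Genes of the unfolded protein response were called about as often as all genes. Of 21 measured genes 2 (9.52%, beside 7.01% over all genes) were higher with BR-DIM, HERPUD1, of protein degradation at the endoplasmic reticulum (2823 with BR-DIM and 876 with isoflavone at 6 h), and XBP1, the factor that IRE1 splices (1888 with BR-DIM 6 h, against 756 with isoflavone 6 h). The median of the list was -0.22, and 0 genes were lower. Several chaperones lay on the isoflavone side of 0 without reaching 2-fold, with HSPA5 (BiP) at 7394 with BR-DIM and 11529 with isoflavone at 6 h (log2 ratio -0.64), DNAJC3 at -0.82 and MANF at -0.56.

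**Figure D2:**
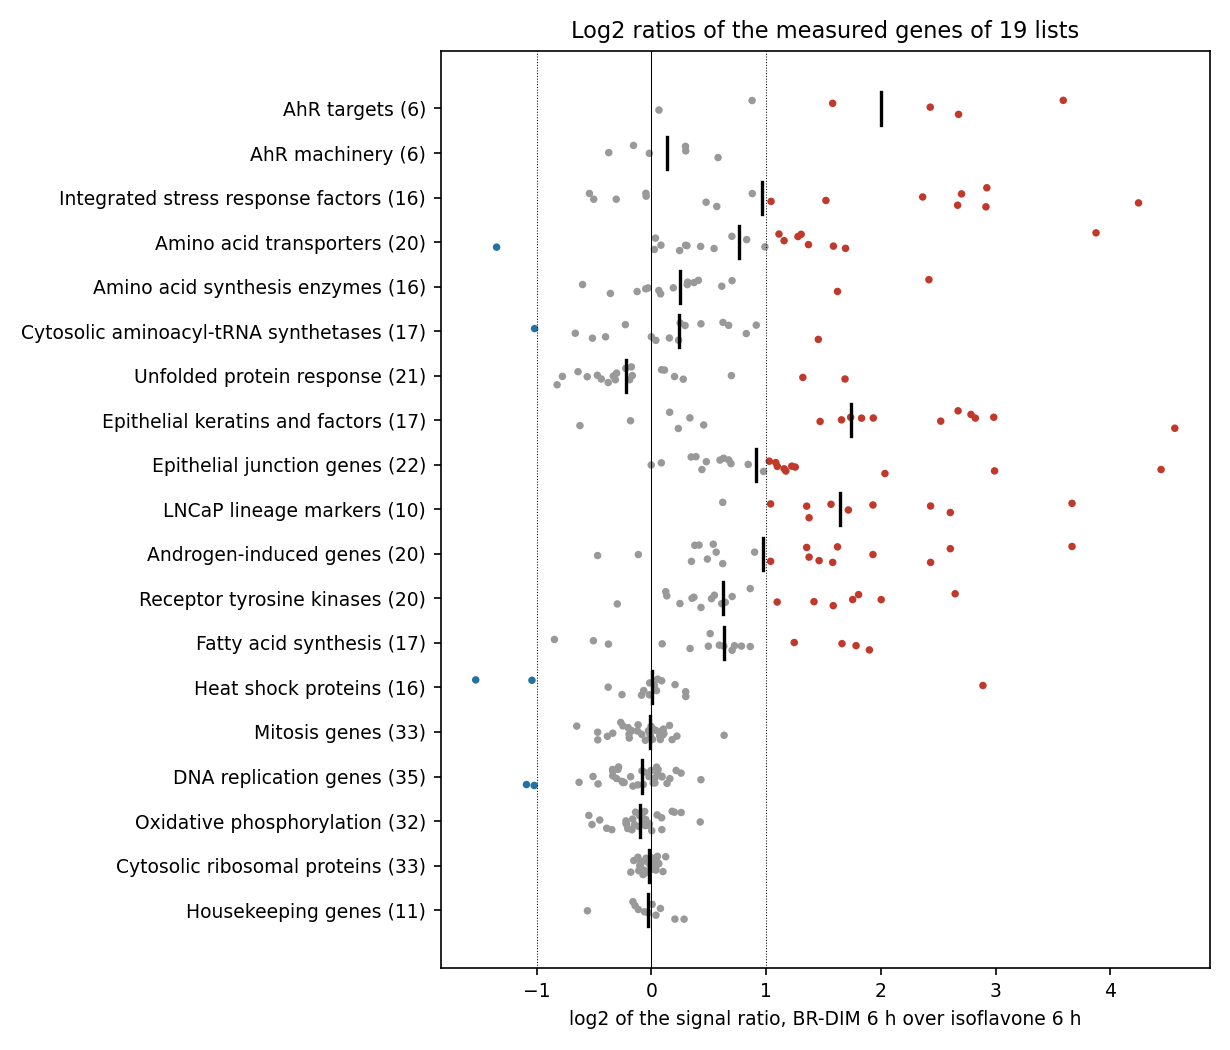
Log2 ratio of BR-DIM 6 h over isoflavone 6 h for each measured gene (point) of gene lists, with the number measured in parentheses, the list median as a black bar and dotted lines at 2-fold. Red points were called higher and blue points lower; the AhR, stress, epithelial and LNCaP lineage lists reach far to the right, while mitosis, ribosomal and housekeeping genes stay within 2-fold.

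Many epithelial genes were higher with BR-DIM in the other sense, with BR-DIM 6 h near the control and isoflavone 6 h below it. Of 25 listed keratins and epithelial factors 17 were measured, with 11 higher (64.7%, beside 7.01% over all genes) and 0 lower. Their median log2 ratio was 1.74, which was 0.34 without the genes that were low on the BR-DIM 48 h array. Of 22 measured junction genes 10 (45.5%) were higher and 0 lower, with a median of 0.91. Of the 21 genes called higher in the 2 lists, the control lay nearer to BR-DIM 6 h for 20. CDH1 (E-cadherin), the adhesion molecule of epithelial cells, had 2113.5 on the BR-DIM 6 h array, against 85.9 on the isoflavone 6 h array, and 99.5 (BR-DIM 48 h), 3736 (isoflavone 72 h) and 2195 (control) on the other arrays. It was low with isoflavone at 6 h and with BR-DIM at 48 h, and high on the other 3 arrays. A second probe set of CDH1 had 350.0 with BR-DIM 6 h against 19.3 with isoflavone 6 h. EHF, an ETS factor of epithelial cells, had 2296 with BR-DIM 6 h, against 91.8 with isoflavone 6 h, and 33.5 (BR-DIM 48 h), 4347 (isoflavone 72 h) and 2775 (control) on the other arrays. All of its 6 probe sets were higher with BR-DIM 6 h. GRHL2, a factor that maintains E-cadherin, had 669.8 with BR-DIM 6 h, against 85.9 with isoflavone 6 h, and 43.5 with BR-DIM at 48 h, 936 with isoflavone at 72 h and 831 in the control. ESRP1, an epithelial splicing factor, had 688 with BR-DIM 6 h, against 10.4 with isoflavone 6 h, and 298 with BR-DIM at 48 h, 886 with isoflavone at 72 h and 375 in the control. The same pair of arrays was low for CDH1, EHF and GRHL2, while ESRP1 kept a signal above the floor with BR-DIM at 48 h.

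Other members ran the same way. SPINT2, a protease inhibitor of the epithelial surface, had 947 on the BR-DIM 6 h array, against 119.6 on the isoflavone 6 h array, and 39.5 (BR-DIM 48 h), 1012.5 (isoflavone 72 h) and 830.3 (control) on the other arrays. KRT18, the keratin of simple epithelia, had signals of 2939.8 (BR-DIM 6 h) and 461 (isoflavone 6 h), and on the remaining arrays 1033 (BR-DIM 48 h), 2679.9 (isoflavone 72 h) and 2738.5 (control). Its partner KRT8 had 466 with BR-DIM and 131 with isoflavone at 6 h. Among tight junction genes CLDN7 had 772 on the BR-DIM 6 h array, against 48.8 on the isoflavone 6 h array, and on the remaining arrays 8.0 (BR-DIM 48 h), 638 (isoflavone 72 h) and 592.5 (control). OCLN had 1959 on the BR-DIM 6 h array, against 869.7 on the isoflavone 6 h array, and 2016 with BR-DIM at 48 h, 2405.5 with isoflavone at 72 h and 1742 in the control. MARVELD2 (tricellulin), which seals the corners between cells, had 613 with BR-DIM and 289 with isoflavone at 6 h. EPCAM, an adhesion molecule, had signals of 565.5 (BR-DIM 6 h) and 138 (isoflavone 6 h). For OCLN, and for the desmosomal genes PKP2 (375 with BR-DIM, 157 with isoflavone) and DSC2 (1159 with BR-DIM, 496 with isoflavone), the BR-DIM 48 h array was not low, with 2016, 427 and 1621. The catenins that link cadherins to actin were not called, with CTNNB1 at a log2 ratio of 0.09 and CTNNA1 at -0.0025, and KRT7 was at -0.62. Of 21 measured mesenchymal genes 4 were also higher with BR-DIM and 0 lower, namely FN1 (fibronectin, 10851.5 with BR-DIM, 3511 with isoflavone), CAV1 (332 with BR-DIM, 126 with isoflavone), COL1A1 (972 with BR-DIM, 449.6 with isoflavone) and CAV2 (1019 with BR-DIM, 480.0 with isoflavone), so genes of both kinds were higher. FN1 rests on probe sets that may match several transcripts, and without them its log2 ratio was 0.10, from a dim probe set. CAV1, COL1A1 and CAV2 fell under 2-fold with the floor as a pseudocount (0.94, 0.97 and 0.95) and with probe sets averaged (0.99, 0.63 and 0.78).

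Many genes of the androgen axis and of the LNCaP lineage were higher with BR-DIM in the same sense as the epithelial genes. Of 20 measured androgen-induced genes 10 were higher with BR-DIM and 0 lower, with a median log2 ratio of 0.97, and of 10 lineage markers 9 were higher, with a median of 1.64 that was 0.33 once the floor was set at 471.7. The androgen list median was 0.56 without the genes low on BR-DIM 48 h, 0.38 with the higher floor and 0.42 with all probe sets of a gene averaged. KLK3 (prostate-specific antigen) had 3424 with BR-DIM and 269.5 with isoflavone at 6 h, and 14.6 with BR-DIM at 48 h, 1545 with isoflavone at 72 h and 5096 in the control. A second probe set had 3560.0 with BR-DIM 6 h, against 134 with isoflavone 6 h. KLK2 had 525 on the BR-DIM 6 h array, against 11.4 on the isoflavone 6 h array, and 7.2 with BR-DIM at 48 h, 124 with isoflavone at 72 h and 707 in the control. Both kallikreins were highest in the control, next with BR-DIM 6 h, and lowest with isoflavone 6 h and BR-DIM 48 h. FOLH1 (prostate-specific membrane antigen) had signals of 591 (BR-DIM 6 h) and 17.2 (isoflavone 6 h), and on the remaining arrays 19.6 (BR-DIM 48 h), 617 (isoflavone 72 h) and 373 (control). STEAP2, a metalloreductase, had 3382 with BR-DIM 6 h, against 887 with isoflavone 6 h, and on the remaining arrays 993 (BR-DIM 48 h), 5316 (isoflavone 72 h) and 2505 (control). TMPRSS2, the androgen-driven protease, had 252 with BR-DIM 6 h, against 5.3 with isoflavone 6 h, and on the remaining arrays 10.3 (BR-DIM 48 h), 238 (isoflavone 72 h) and 339 (control). The order of arrays differed between these genes, but isoflavone 6 h and BR-DIM 48 h were the low pair in each.

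Not every androgen-regulated gene was called. FKBP5, a cochaperone that androgens induce, had 3378 on the BR-DIM 6 h array, against 2653 on the isoflavone 6 h array (log2 ratio 0.35), and on the remaining arrays 3383 (BR-DIM 48 h), 3125 (isoflavone 72 h) and 2979 (control). CAMKK2 was at -0.11, NDRG1 at -0.47, ELL2 at 0.56, PMEPA1 at 0.41 and SLC45A3 (prostein) at 0.62. Of the luminal factors, HOXB13 had 514 with BR-DIM and 174 with isoflavone at 6 h and FOXA1, which opens chromatin for other factors, had 319 with BR-DIM 6 h, against 62.5 with isoflavone 6 h. They were the 2 called higher among 9 measured (22.2%, beside 7.01% over all genes).

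**Figure D3:**
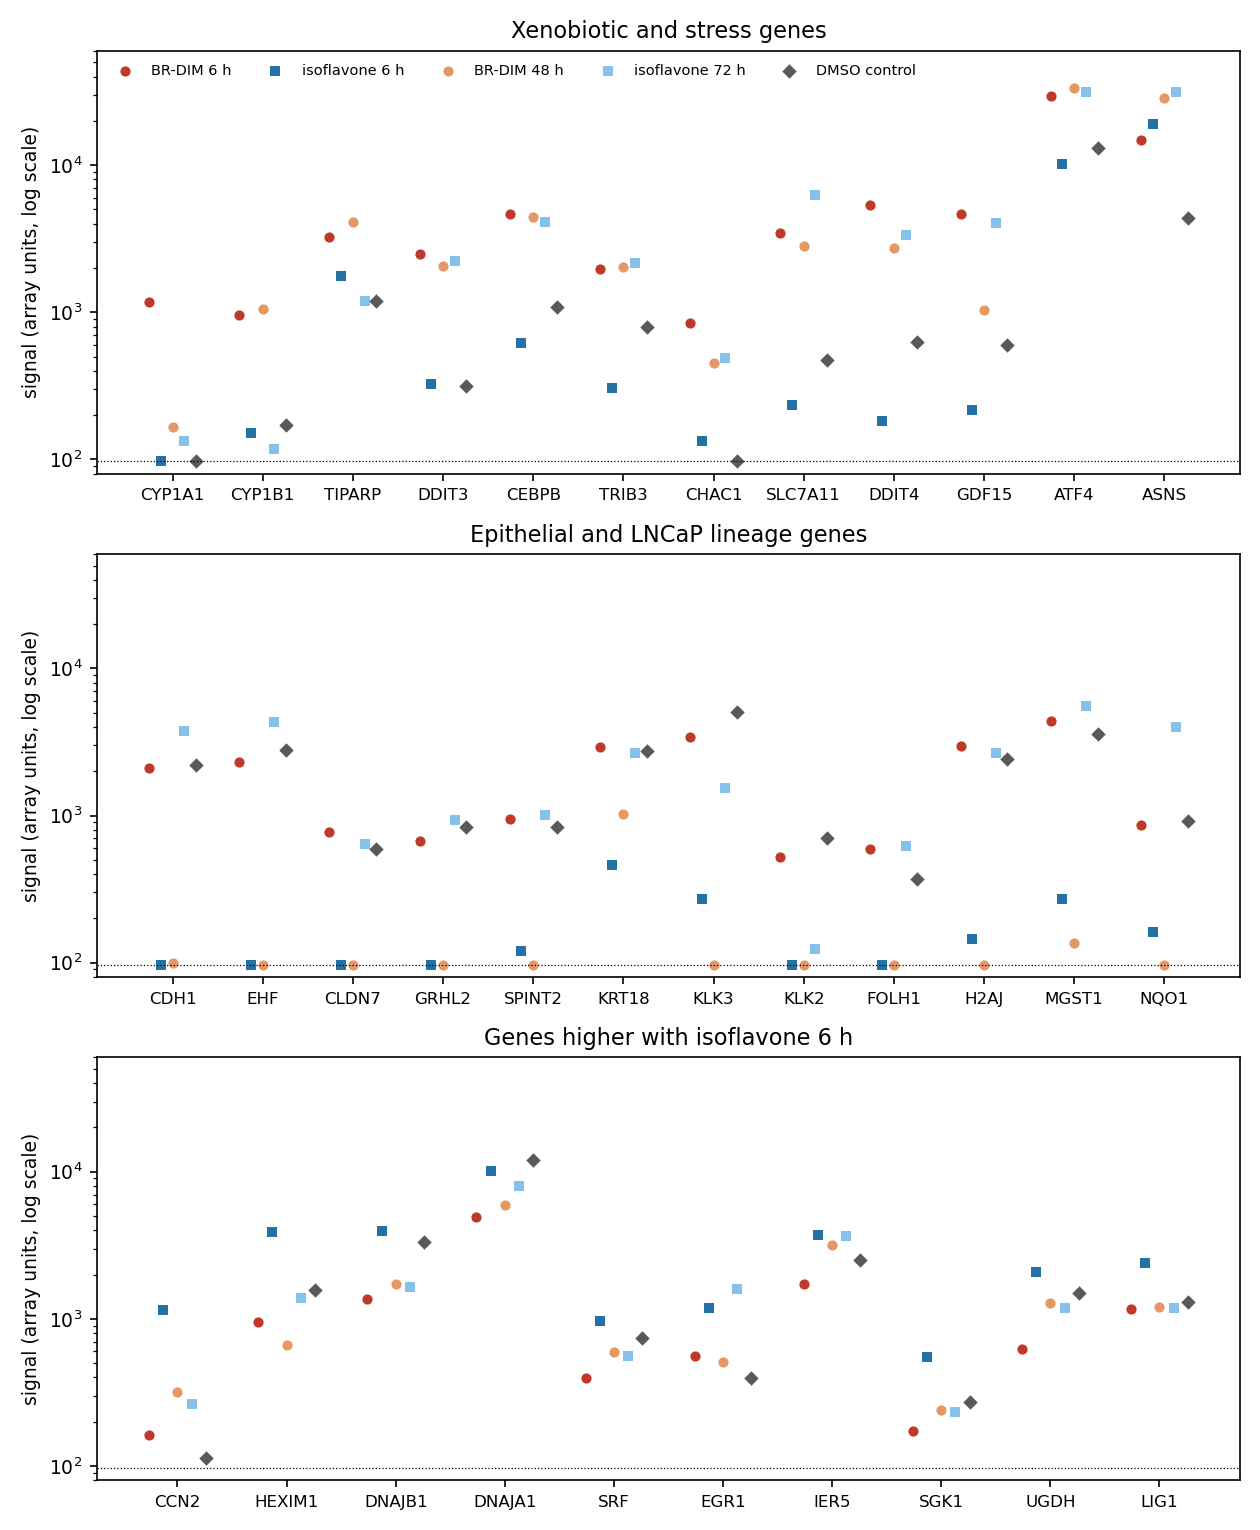
Signal on the 5 arrays (array units, log scale) of stress and AhR genes (top), epithelial and lineage genes (middle) and genes higher with isoflavone 6 h (bottom); 1 point is 1 array, and the dotted line is the floor of 97.1, at which lower signals are drawn. In the top panel the isoflavone 6 h squares mostly lie near or below the control diamonds, and in the middle panel they lie far below them together with the BR-DIM 48 h circles.

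Further genes with large ratios shared the low pair of arrays. MGST1, a membrane-bound glutathione transferase, had 4371 on the BR-DIM 6 h array, against 272 on the isoflavone 6 h array, and 135 (BR-DIM 48 h), 5558 (isoflavone 72 h) and 3599 (control) on the other arrays. It was the 1 called among 15 measured glutathione transferases (6.67%, near the 7.01% over all genes), whose median was -0.14. H2AJ, a histone variant, had 2954 with BR-DIM and 145 with isoflavone at 6 h, and on the remaining arrays 30.5 (BR-DIM 48 h), 2659.6 (isoflavone 72 h) and 2406 (control). MAGEA6, a cancer-testis antigen of the X chromosome, had 1679.8 with BR-DIM and 117 with isoflavone at 6 h, and 10.1 (BR-DIM 48 h), 1871 (isoflavone 72 h) and 2210.3 (control) on the other arrays. Of 4 measured MAGEA genes 3 were called higher, MAGEA1 (637 with BR-DIM, 81.3 with isoflavone), MAGEA6 and MAGEA12 (672 with BR-DIM, 54.1 with isoflavone), and PAGE1, of another such family, had signals of 2034 (BR-DIM 6 h) and 182 (isoflavone 6 h), and on the remaining arrays 8.4 (BR-DIM 48 h), 1524 (isoflavone 72 h) and 1863 (control). The MAGEA genes are near-identical copies, so their probe sets may read each other's transcripts, and the family was chosen after its values were seen. IGFBP3, which binds insulin-like growth factors, had 1478 with BR-DIM 6 h, against 45.0 with isoflavone 6 h, and 140.4 with BR-DIM at 48 h, 5164 with isoflavone at 72 h and 825 in the control. HSPB1, a small heat shock protein, had signals of 8454 (BR-DIM 6 h) and 1140.3 (isoflavone 6 h), and 1136 with BR-DIM at 48 h, 5631 with isoflavone at 72 h and 6227 in the control. In each of these, isoflavone 6 h and BR-DIM 48 h were the 2 lowest arrays.

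Receptors of growth factors and some enzymes of lipid synthesis were also among the higher genes. Of 20 measured receptor tyrosine kinases 7 (35.0%, beside 7.01% over all genes) were higher and 0 lower, with a median log2 ratio of 0.63. ERBB3, the partner of HER2, had signals of 609 (BR-DIM 6 h) and 16.2 (isoflavone 6 h), and on the remaining arrays 107 (BR-DIM 48 h), 433 (isoflavone 72 h) and 499 (control). MERTK had 634.5 with BR-DIM 6 h, against 158 with isoflavone 6 h, and 667 with BR-DIM at 48 h, 545 with isoflavone at 72 h and 460.3 in the control. The 2 other probe sets of MERTK stayed under 2-fold (log2 ratio 0.80 and 0.09). MET, the receptor of hepatocyte growth factor, had signals of 1103 (BR-DIM 6 h) and 316 (isoflavone 6 h), and EGFR had 1067 on the BR-DIM 6 h array, against 399.6 on the isoflavone 6 h array. For MERTK, MET and EGFR the BR-DIM 48 h array was at least as high as BR-DIM 6 h, with 667, 1641.5 and 1080.4. Of 17 fatty acid synthesis genes 4 (23.5%) were higher, with a median of 0.63, among them SREBF1, the master factor of lipid synthesis (387 with BR-DIM, 112 with isoflavone), and the desaturases FADS2 (433 with BR-DIM, 137 with isoflavone) and FADS3 (362.5 with BR-DIM, 61.2 with isoflavone). Of 19 cholesterol synthesis genes 2 (10.5%, near the share over all genes) were higher, INSIG1, which retains the SREBP factors (3402 with BR-DIM, 1206 with isoflavone), and TM7SF2 (759 with BR-DIM, 314.5 with isoflavone), with a median of 0.15.

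Of 14 measured BCL2 family genes 4 (28.6%, beside 7.01% over all genes) were higher with BR-DIM. The pro-apoptotic BIK had signals of 401 (BR-DIM 6 h) and 95.9 (isoflavone 6 h), and on the remaining arrays 247 (BR-DIM 48 h), 329 (isoflavone 72 h) and 362 (control). HRK, another death activator, had 407 with BR-DIM and 117 with isoflavone at 6 h, and 478 with BR-DIM at 48 h, 384 with isoflavone at 72 h and 164 in the control, with isoflavone 6 h below and the other treated arrays above the control. BOK had 237 on the BR-DIM 6 h array, against 69.2 on the isoflavone 6 h array, and the protective BCL2L1 (BCL-XL) had 391 on the BR-DIM 6 h array, against 144.5 on the isoflavone 6 h array. By their brightest probe sets, members of opposite function were thus higher together. A second, dim probe set of BCL2L1 had 108.9 with BR-DIM 6 h, against 84.5 with isoflavone 6 h (log2 ratio 0.17). With probe sets averaged, BCL2L1 was at 0.56 and BOK at 0.64, both under 2-fold. Among 13 estrogen-responsive genes 3 (23.1%) were higher, MYB (446 with BR-DIM, 95.0 with isoflavone), the carbonic anhydrase CA12 (533 with BR-DIM, 127 with isoflavone) and AGR2, a protein disulfide isomerase (379 with BR-DIM, 4.3 with isoflavone). Of 27 nuclear receptors 4 (14.8%, beside 7.01% over all genes) were higher, NR4A1, RARB, THRB and NR2F1, with log2 ratios from 1.25 to 1.56. RUNX2, the bone transcription factor, had 451 with BR-DIM 6 h, against 37.6 with isoflavone 6 h, and on the remaining arrays 508 (BR-DIM 48 h), 407 (isoflavone 72 h) and 314 (control). By this probe set RUNX2 was low on the isoflavone 6 h array alone. With all its probe sets averaged, its log2 ratio fell from 2.22 to 0.43, under 2-fold.

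**Figure D4:**
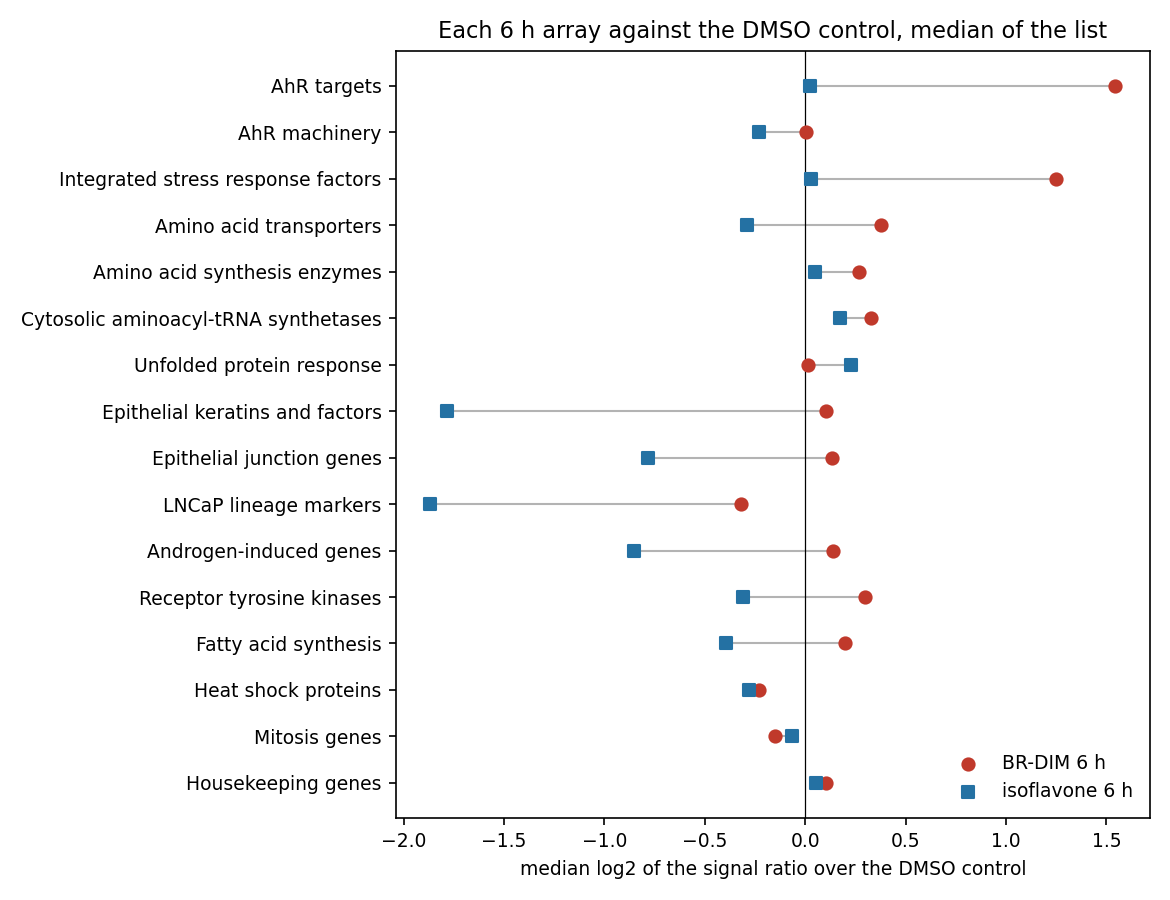
Median log2 ratio over the DMSO control of the measured genes of each list, for BR-DIM 6 h (red circles) and isoflavone 6 h (blue squares). AhR targets and stress factors lie at 1.54 and 1.25 with BR-DIM against 0.03 and 0.03 with isoflavone, whereas epithelial keratins and factors lie at 0.10 with BR-DIM against -1.78 with isoflavone and LNCaP lineage markers at -0.32 with BR-DIM against -1.87 with isoflavone; both series share the control array.

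The 146 genes lower with BR-DIM, that is, higher with isoflavone, formed few groups. CCN2 (connective tissue growth factor), a matricellular protein and a target of YAP and TEAD whose promoter stretch is shown above, had signals of 163 (BR-DIM 6 h) and 1145 (isoflavone 6 h), and on the remaining arrays 318 (BR-DIM 48 h), 265 (isoflavone 72 h) and 113 (control). It was high on the isoflavone 6 h array alone, 7.04-fold above BR-DIM 6 h. Its relative CCN1 (CYR61), named after its values were seen, had 429 with BR-DIM and 836 with isoflavone at 6 h, and on the remaining arrays 927 (BR-DIM 48 h), 494 (isoflavone 72 h) and 289 (control), a log2 ratio of -0.96 that was just under 2-fold. A second probe set of CCN1 had 342.6 with BR-DIM 6 h, against 864.7 with isoflavone 6 h (-1.34). The ratio of CCN1 was past 2-fold with quantile normalization (-1.03) and with probe sets averaged (-1.15). HEXIM1, which holds the elongation kinase P-TEFb inactive, had 946 on the BR-DIM 6 h array, against 3918 on the isoflavone 6 h array, and on the remaining arrays 666 (BR-DIM 48 h), 1384 (isoflavone 72 h) and 1569 (control). A second probe set had 432 with BR-DIM 6 h, against 1175 with isoflavone 6 h. HEXIM1 was high with isoflavone 6 h and under the control on the other treated arrays.

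Serum response and immediate early genes were divided. SRF, the factor that reads serum and actin signals, had 396 with BR-DIM 6 h, against 974 with isoflavone 6 h, and 593 (BR-DIM 48 h), 559 (isoflavone 72 h) and 736 (control) on the other arrays. EGR1 had 555 with BR-DIM 6 h, against 1189.7 with isoflavone 6 h, and 509.6 (BR-DIM 48 h), 1597 (isoflavone 72 h) and 396 (control) on the other arrays. IER5, another early gene, had 1718 with BR-DIM and 3718 with isoflavone at 6 h, and 3186 with BR-DIM at 48 h, 3638 with isoflavone at 72 h and 2519 in the control. These 3 were lower with BR-DIM among 19 immediate early genes, beside 1.12% lower over all genes. ATF3, NR4A1 and MAFF were higher (15.8%, beside 7.01% over all genes), and the median was 0.20. NR4A1 rests on a probe set that may match several transcripts, and without such probe sets its log2 ratio was -0.44. SGK1, a kinase that serum and glucocorticoids induce, had signals of 172 (BR-DIM 6 h) and 549 (isoflavone 6 h), and 239 with BR-DIM at 48 h, 232 with isoflavone at 72 h and 270.2 in the control, and so differed from the glucocorticoid-induced TSC22D3 and MAOA (2342 with BR-DIM, 875 with isoflavone).

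Among heat shock proteins the cochaperones DNAJB1 and DNAJA1 were lower with BR-DIM. DNAJB1 had 1361 on the BR-DIM 6 h array, against 3938 on the isoflavone 6 h array, and 1729 (BR-DIM 48 h), 1654 (isoflavone 72 h) and 3331 (control) on the other arrays. Its second probe set had 1058 with BR-DIM 6 h, against 2724 with isoflavone 6 h. DNAJA1 had 4894.5 with BR-DIM 6 h, against 10083 with isoflavone 6 h, and 5907 with BR-DIM at 48 h, 7960.1 with isoflavone at 72 h and 11981 in the control. For both, isoflavone 6 h was near the control and the other treated arrays were below it. The remaining 14 of the 16 measured genes gave 1 higher (HSPB1, above) and 13 within 2-fold, among them HSP90AA1 (-0.02), HSPD1 (-0.02), HSPH1 (-0.26) and BAG3 (-0.07), and the median of the list was 0.0048. UGDH, which makes the glucuronic acid donor used to conjugate small molecules, had 621 on the BR-DIM 6 h array, against 2072 on the isoflavone 6 h array, and on the remaining arrays 1274 (BR-DIM 48 h), 1176 (isoflavone 72 h) and 1488 (control). It was highest with isoflavone 6 h and lowest with BR-DIM 6 h. The other genes among the 12 furthest to this side were ATF7IP2, METTL15, MATR3, B4GALT2, RCBTB2, TMEM127, METTL1 and CABLES2, with log2 ratios from -1.98 to -1.59. Of these METTL1, the tRNA guanine methyltransferase, had 201 with BR-DIM 6 h, against 686 with isoflavone 6 h, and MATR3, a nuclear matrix protein, is read from a probe set with 160.0 with BR-DIM 6 h, against 624 with isoflavone 6 h. With all probe sets of a gene averaged, METTL15 was at -0.07, ATF7IP2 at -0.87, RCBTB2 at -0.92 and TMEM127 at -0.97, all under 2-fold. A second probe set of ATF7IP2 lay to the other side, with 419.8 with BR-DIM 6 h, against 354.5 with isoflavone 6 h.

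Few genes of the cell cycle and of basic machinery were called. Over all genes 7.01% were higher and 1.12% lower, and above a signal of 6214 these shares were 0.617% and 0.514%. The lists were not compared with genes of the same brightness, so few calls need not be particular to them. Of 33 mitosis genes 0 were past 2-fold, with a median log2 ratio of -0.01 and a range from -0.65 to 0.63. Of 35 replication genes 0 were higher and 2 lower, DNA ligase LIG1 (1174 with BR-DIM, 2385.5 with isoflavone) and GINS4, a part of the replicative helicase (166 with BR-DIM, 353 with isoflavone), with a median of -0.08. Of 33 cytosolic ribosomal proteins 0 were called, and they lay between -0.18 and 0.12. None was called among 32 genes of oxidative phosphorylation (median -0.10), 27 proteasome subunits (-0.14), 24 lysosomal genes (-0.0011), 23 autophagy genes (-0.16), 19 p53 targets and GADD45 genes (-0.06), 20 chromatin modifiers (0.07), 13 tubulins (0.06) or 11 housekeeping genes (-0.03). In all, 14 of 54 lists held 0 calls, and 8 held a gene called lower. Among genes that the study followed in other assays, CDKN1B (p27) had 1782 with BR-DIM 6 h, against 1448 with isoflavone 6 h, CCND1 (cyclin D1) had 742 with BR-DIM and 796 with isoflavone at 6 h, AKT1 had 927 with BR-DIM and 1223.5 with isoflavone at 6 h and CREB1 had 1543 with BR-DIM and 1739.6 with isoflavone at 6 h, each within 2-fold. A second, dimmer probe set of CCND1 lay to the other side, with 182.3 with BR-DIM 6 h, against 97.8 with isoflavone 6 h (log2 ratio 0.90), and the 7 probe sets of CREB1 lay on both sides, from -0.46 to 0.40. MITF, a factor of osteoclasts and melanocytes, had 735 on the BR-DIM 6 h array, against 425 on the isoflavone 6 h array (0.79), CXCR4, a homing receptor, had 872 on the BR-DIM 6 h array, against 431 on the isoflavone 6 h array (1.02), and TNFRSF11A (RANK) had signals of 396.5 (BR-DIM 6 h) and 295 (isoflavone 6 h) (0.43). TNFSF11 (RANKL) was under the floor on both arrays.

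A second probe set of the same gene gives another reading of the same RNA, which is no replicate of the culture. Of the 916 higher genes 430 had a second probe set above the floor, and in 381 of them (88.6%) it was also higher with BR-DIM, in 151 (35.1%) by 2-fold or more. The median log2 ratio of these second probe sets was 0.73, and in 0 genes was it past 2-fold the other way. Of the 146 lower genes 56 had one, which was lower in 38 (67.9%) and by 2-fold in 13 (23.2%), and in 1 it was past 2-fold the other way. Among 6132 genes within 2-fold by the brightest probe set, 180 second probe sets (2.94%) were 2-fold higher. The direction of the higher genes thus held on the second probe set more often than its size. It held at 2-fold or more for CDH1, EHF, KLK3, MGST1, SLC7A11, IGFBP3, STC2, TRIB3, HEXIM1 and DNAJB1, whereas DDIT4, CYP1A1, DDIT3, NUPR1, MAGEA6 and CCN2 have 1 probe set each in the gene table used.

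**Figure D5:**
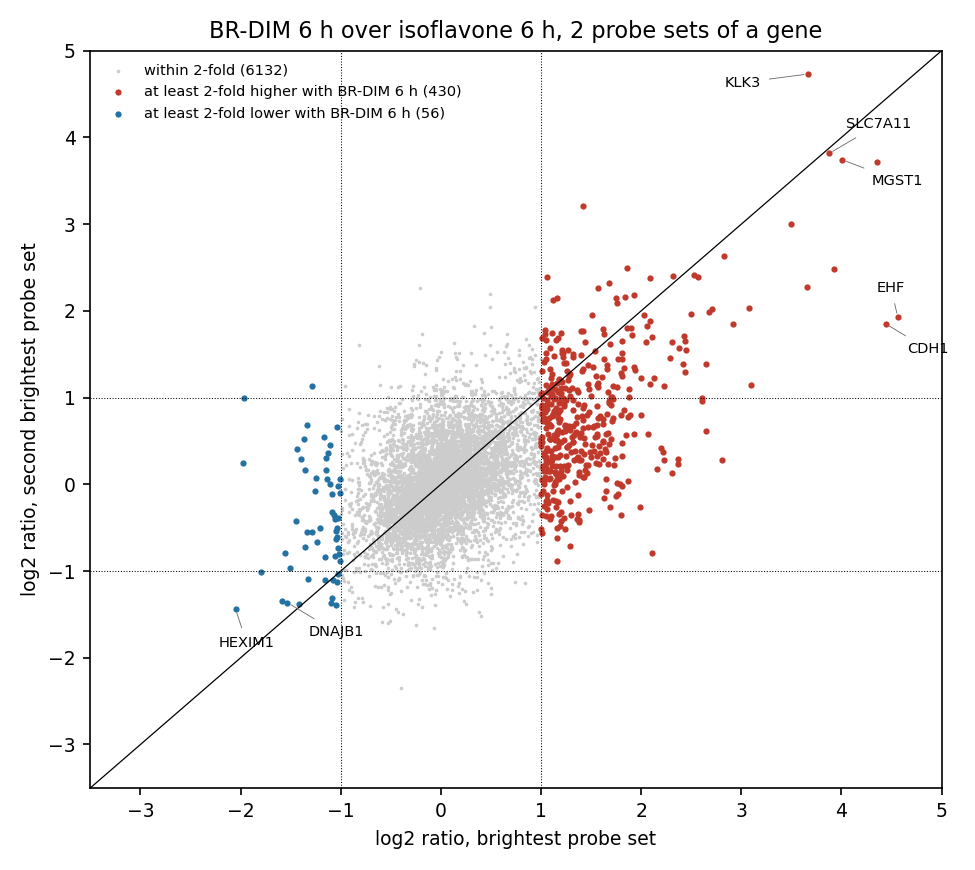
Log2 ratio of BR-DIM 6 h over isoflavone 6 h by the brightest probe set of a gene (horizontal axis) and by the second brightest (vertical axis), for genes measured on both, with dotted lines at 2-fold and a solid line of equal ratios. Most of the 430 red genes lie above 0 but under the line of equal ratios, and the 56 blue genes scatter on both sides of 0.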

How the data were processed

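Total RNA of the C4-2B cultures was hybridised to whole-genome Affymetrix arrays, with 1 array for each condition. Per the labels and the methods, the authors made the deposited intensity values with Affymetrix's MAS5 software as 1 linear signal per probe set, scaled to a common level. The version and target of the scaling are not given in the sources used here, and trimmed means (2% from each end) lay between 498.1 and 498.4. The scaling hides any difference in total RNA, and without detection calls a floor stood in for background.

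The arrays hold 54613 probe sets. The platform annotation gives a single gene symbol for 41091, which were used, several for 1801, and does not list 11721. The floor of 97.1, the choice of probe set and the 2-fold rule are described in the report. Named genes were drawn by a rule: the 12 largest ratios each way among genes whose brighter signal was at least 4 times the floor, the 4 furthest measured members of each of 54 gene lists, every AhR gene, and list members of the same role. Not all genes that meet the rule are named. Lists such as the mitosis, ribosomal and proteasome genes are given without members, and others, such as NRF2 targets and the IGF axis, are not described as lists. The members and lists were chosen with earlier results of these data known, so their counts are descriptions. CCN1, the MAGEA and PAGE genes, MITF, CXCR4, CREB1, TNFRSF11A, TNFSF11 and some others that the study followed lie outside the rule. One list of line markers is not reported here. The counts, the list medians and the ratios of the genes given were recomputed with the arrays quantile normalized or set to the same median ratio, with no floor, a higher floor or the floor as a pseudocount, with probe sets averaged, and without _s_at and _x_at probe sets, and the counts of called genes also with rules of 1.5-fold and 3-fold. The second probe set result was recomputed under the normalizations and floors alone. The procedure was tested on simulated data. Python 3.11.15, numpy 2.4.6, pandas 2.3.3, scipy 1.17.1 and matplotlib 3.10.9 were used.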

Additional observations from a re-analysis of the deposited data

How the results depend on the processing

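The counts of genes past 2-fold moved with the processing while the excess on the BR-DIM side stayed. The 916 higher and 146 lower genes became 1738 and 405 without a floor, 174 and 46 with a floor at 471.7, 485 and 87 with all probe sets of a gene averaged, 2291 and 857 at 1.5-fold, and 244 and 16 at 3-fold. Quantile normalization left 688 higher genes, 679 of them among the 916, and raised the lower ones to 249, with 143 of the 146 among them, which moved the split from 86.3% to 73.4% higher. The median of the AhR targets, 2.01, was 0.88 under the higher floor and 0.88 without _s_at and _x_at probe sets, where CYP1B1 among others was left out. The medians of epithelial junction genes (0.91) and androgen-induced genes (0.97) were 1.0022 and 1.46 without a floor, 0.63 and 0.38 under the higher floor, and 0.58 and 0.42 with probe sets averaged. Without genes low on BR-DIM 48 h, an alternative chosen after seeing the data, the median of androgen-induced genes was 0.56 and that of keratins and epithelial factors 0.34. That of LNCaP lineage markers (1.64) was 0.33 under the higher floor and 2.86 without a floor. Of 164 genes given in the text, 123 were called, and in 1 of these, NR4A1, the ratio changed sign under an alternative, at -0.44 without _s_at and _x_at probe sets; the cause was not tested. The sign also changed in 8 genes that were not called, whose ratios were at most 0.32 in size. Averaging probe sets took 47 of the 123 calls under 2-fold, the higher floor 34 of the 94 with a value, the floor as a pseudocount 21, quantile normalization 9, scaling by the median ratio 1, and leaving out _s_at and _x_at probe sets 5 of 86 beside NR4A1, among them FN1, MERTK and TMEM127. No array could be left out and no paired analysis was possible because each condition is 1 array. Dim signals limit the ratios, and 274 of the 916 are bounds.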

Other observations

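Some smaller groups give further values, with shares called higher between 11.8% and 21.4% beside 7.01% over all genes. Of 14 measured Wnt feedback genes 3 were higher with BR-DIM 6 h than with isoflavone 6 h and 0 lower, with LGR5, a stem cell receptor, at signals of 868 (BR-DIM 6 h) and 267 (isoflavone 6 h), WNT5A at 674 with BR-DIM 6 h, against 227 with isoflavone 6 h and TCF7L1 at 334 with BR-DIM and 124 with isoflavone at 6 h. Of 17 BMP and ID genes 3 were higher, the receptors BMPR1B (399 with BR-DIM, 121 with isoflavone) and ACVR1 (804 with BR-DIM, 396 with isoflavone) and the ligand BMP7 (599.7 with BR-DIM, 294 with isoflavone). Of 17 AKT and PI3 kinase genes 2 were higher, INPP4B, a phosphatase that opposes the pathway (246.5 with BR-DIM, 7.4 with isoflavone), and PIK3CD, a catalytic subunit (517 with BR-DIM, 214 with isoflavone). Of 16 MAP kinase feedback genes 2 were higher, the phosphatases DUSP16 (1316 with BR-DIM, 471 with isoflavone) and DUSP8 (452.5 with BR-DIM, 211 with isoflavone). SLC30A4, a zinc exporter, had signals of 1791 (BR-DIM 6 h) and 565 (isoflavone 6 h), and MT1E, a metallothionein that binds zinc, had 121 with BR-DIM 6 h, against 295 with isoflavone 6 h, so these 2 genes of zinc handling lay on opposite sides, while MT1E shares much of its sequence with other metallothioneins.

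TXNIP, which restrains thioredoxin and glucose uptake, was in none of the lists and was looked up after other values were seen. Its signals were 782.5 with BR-DIM 6 h, against 1433 with isoflavone 6 h, and 1711 (BR-DIM 48 h), 5065 (isoflavone 72 h) and 1864 (control) on the other arrays, a log2 ratio of -0.87, and a second probe set had 321 with BR-DIM 6 h, against 853 with isoflavone 6 h. It was lowest with BR-DIM 6 h and highest with isoflavone 72 h. With 1 array per condition these are values of single arrays.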
